A study of Mus musculus with 24 samples.

Results

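Dendritic cells (DCs), which capture antigen and activate T cells, were grown from mouse bone marrow in 2 kinds of culture, and both were treated for 24 h with AZD5582. The comparison described here sets the treated FL cultures against the treated GM cultures and takes in 6 of the 24 libraries of the series, chosen by their titles. FL cultures were grown up to day 16 in FLT3L (200 ng/ml) and GM-CSF (20 ng/ml) and then received 0.05 µM AZD5582 (cultures 91, 94 and 95). GM cultures were grown in 20 ng/ml GM-CSF alone up to day 8 and then received 0.1 µM AZD5582 (replicates 1, 2 and 3 of culture 105). FL and GM libraries after 24 h in the solvent DMSO and at the start (t0, no treatment) are given beside them, 3 libraries in each group. The marrow came from wild-type or Cas9-EGFP C57BL/6JRj mice; per sample, the labels enter the genotype as NA. The 3 GM libraries carry 1 culture number and the 3 FL libraries carry 3, and separate animals are not stated. The p-values therefore rest on the spread between libraries, estimated over all 24 libraries together and not over these 6 alone. FLT3L, day of culture and dose all differ with the culture type, and their parts in any difference cannot be told apart.

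Conventional type 1 DCs (cDC1s), the cell type the series names for FL cultures, take up dead cells and show their antigens to CD8 T cells; they depend on FLT3L and on the transcription factors IRF8 and BATF3. Marrow grown in GM-CSF alone gives a mixture of DCs and macrophages that come largely from monocytes. AZD5582 is a SMAC mimetic, which blocks IAPs, the proteins that inhibit apoptosis. Compounds of this class cause loss of cIAP1 and cIAP2, which lets the kinase NIK accumulate and drives the non-canonical NF-κB pathway.

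The 6 libraries held 37.2 to 83.7 M counts on genes (M, 1000000) and detected 18928 to 20217 genes. Levels are given in CPM, counts scaled to 1000000 counts on genes, in the order of cultures 91, 94 and 95 for FL and of replicates 1, 2 and 3 for GM. A log2 difference is FL minus GM, with its SE, and a gene was called where the adjusted p was under 0.05. The first principal component of the 6 libraries held 65.3% of the variance and separated FL (64.09 to 85.35) from GM (-77.14 to -68.67). The second held 22.5% and separated FL culture 91 (74.88) from cultures 94 (-69.12) and 95 (-17.54), with the GM libraries between them (-3.73 to 9.63). The biological coefficient of variation was 0.452 among the treated FL libraries and 0.125 among the treated GM libraries. In the fit of all 24 libraries, from which the p-values come, it was 0.272, below the value of the treated FL libraries. Mitochondrial genes took 1.38%, 2.89% and 2.41% of the counts in FL and 4.76%, 3.53% and 3.59% in GM, groups that did not overlap (exact permutation p = 0.1, two-sided, the smallest that 3 against 3 libraries allow). Reads on no annotated feature took 6.61%, 5.24% and 5.19% in FL and 3.72%, 3.65% and 3.76% in GM. The part of these shares in the results was not tested.

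Of 17262 genes tested, 5782 (33.5%) were called, 2818 (16.3%) higher and 2964 (17.2%) lower in FL cultures, and 3240 (18.8%) differed at least 2-fold. The median log2 difference over all genes was 0.07. The list counts under AZD5582 given below are to be read beside the 16.3% higher and 17.2% lower among all genes. Those after DMSO are to be read beside 20% higher and 21.4% lower, and those at t0 beside 23.4% and 17.5%. Among the largest rises were genes of granulocytes: the granule protease gene Ctsg (7.35 ± 1.28), the lactoferrin gene Ltf (6.55 ± 0.90), the myeloperoxidase gene Mpo (6.46 ± 1.42) and the granule genes Ngp (6.46 ± 0.96) and Camp (6.19 ± 0.99). Among the largest falls were Siglec1, a sialic acid receptor of macrophages (-7.27 ± 0.51), the scavenger receptor gene Marco (-6.96 ± 0.67), Ch25h, which makes 25-hydroxycholesterol (-5.95 ± 0.70), the matrix protease gene Mmp2 (-5.84 ± 0.45) and Lox, a collagen crosslinking enzyme (-5.62 ± 0.53). In limma fits with the culture as a random block, Ctsg (adjusted p = 0.0678) and Mpo (adjusted p = 0.118) were not called, and Mpo was not called in a limma fit with sample weights and no block either (adjusted p = 0.0576). Groups did not overlap in 7706 genes (44.6%). The same culture types differed in 7147 genes after DMSO (41.4%; 3460 higher and 3687 lower) and in 7059 at t0 (40.9%; 4033 higher and 3026 lower), in other libraries of the same cultures. Of the genes called higher under AZD5582, 2018 were also higher after DMSO (71.6% of the AZD5582 calls and 58.3% of the DMSO calls) and 1988 at t0 (70.5% and 49.3%). Of those called lower, 2334 were also lower after DMSO (78.7% and 63.3%) and 1918 at t0 (64.7% and 63.4%).

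**Figure D1:**
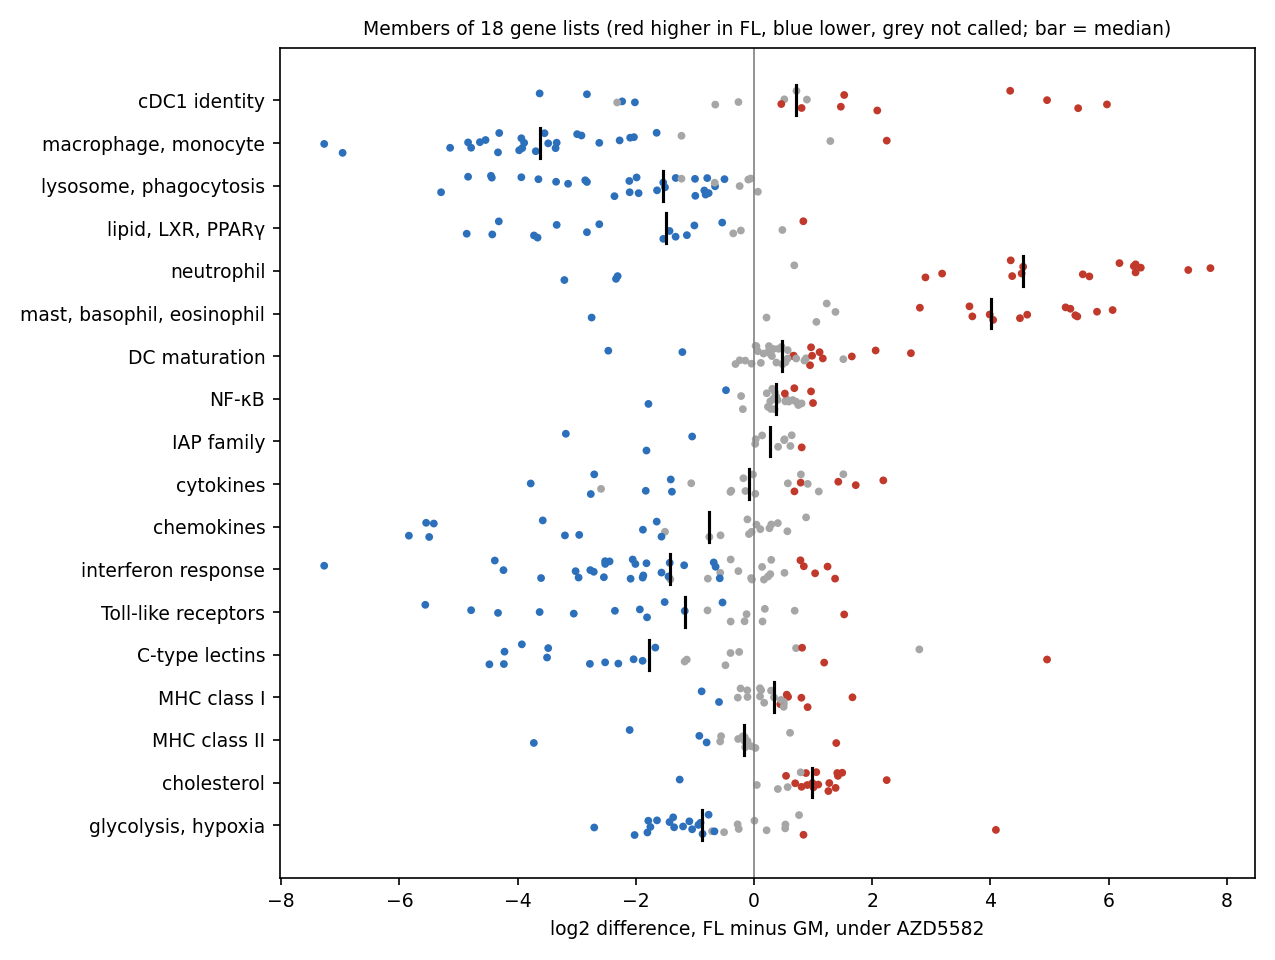
Log2 differences, FL minus GM, under AZD5582 for the members of 18 gene lists, 1 point a gene, red where called higher in FL, blue where called lower and grey where not called, with the median of the members drawn as a black bar. Members with 3 or fewer counts in a group are not drawn; macrophage, lysosome, chemokine and interferon lists lie mostly to the left of 0, and neutrophil, mast cell and cholesterol lists mostly to the right.

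Several genes that define cDC1s were higher in treated FL cultures. Clec9a, a receptor for dead cells, had 38.9, 21.96 and 26.1 CPM in FL and 0.841, 0.643 and 1.25 CPM in GM cultures, 4.96 ± 0.43 on the log2 scale (adjusted p = 3.13e-08). Cadm1, an adhesion molecule of cDC1s, had 10.2, 13.5 and 13.4 CPM in FL and 0.584, 1.01 and 0.316 CPM in GM cultures (4.34 ± 0.38). Neither gene's groups overlapped. Xcr1, the chemokine receptor that marks cDC1s, had 1.67, 2.76 and 1.79 CPM in FL and 0, 0.02798 and 0.0166 CPM in GM cultures, which is 336 counts in FL and 2 in GM over the group and a ratio of 138.4 (95% counting interval 38.01 to 1147). At t0 the same gene had 383, 105 and 147 CPM in FL and 0.105, 0.165 and 0.146 CPM in GM cultures. Flt3, the receptor of FLT3L, had 649, 303 and 436 CPM in FL and 155, 159 and 187 CPM in GM cultures (1.47 ± 0.36), and 299.5, 166 and 193 CPM in FL and 3.67, 4.91 and 5.09 CPM in GM at t0. The integrin gene Itgae was far higher in every FL library but unevenly, at 3.03, 23.6 and 17.1 CPM in FL and 0.1402, 0.4197 and 0.166 CPM in GM cultures (5.97 ± 0.94); in a limma fit with the culture as a random block it was not called (adjusted p = 0.0762).

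Other cDC1 genes were not called, or were lower in FL cultures. Of the 20 cDC1 genes tested, 10 were higher, 4 lower and 6 not called under AZD5582 (median 0.76, against 0.07 over all genes), with 10 higher and 3 lower after DMSO (5 lower without culture 95) and 16 higher and 1 lower at t0. Over all genes, 16.3% were higher and 17.2% lower under AZD5582, 20% and 21.4% after DMSO and 23.4% and 17.5% at t0. The median of the cDC1 genes was 3.09 at t0 and 0.85 after DMSO, so most of its fall from t0 was there after DMSO. The test of the change called 14 of the 20 lower against t0 and 1 lower against DMSO, beside 5.93% and 0.707% of all genes. Irf8, the transcription factor on which cDC1s depend, had 3574, 1375 and 2021 CPM in FL and 1446, 1324 and 1464 CPM in GM cultures, and was not called (0.72 ± 0.33, adjusted p = 0.102); without culture 94 it was (0.95, adjusted p = 0.0283). Batf3, its partner, was higher in FL, at 116, 125 and 128 CPM against 75.1, 66.6 and 69.6 CPM in GM cultures (0.81 ± 0.12). Tlr3, the sensor of double-stranded RNA that cDC1s carry at high levels, was lower in FL, at 0.362, 0.524 and 0.588 CPM against 5.84, 6.85 and 5.33 CPM in GM cultures (-3.63 ± 0.60, adjusted p = 9.20e-05). After DMSO it had 1.24, 12.8 and 16.8 CPM in FL and 10.1, 9.38 and 10.9 CPM in GM cultures, and at t0 135, 41.98 and 61.6 CPM in FL and 9.81, 13.6 and 11.1 CPM in GM cultures. Its difference under AZD5582 minus that after DMSO was -3.65 ± 0.78 (adjusted p = 0.0195), which was not called without GM DMSO replicate 1 (adjusted p = 0.063) or 2 (adjusted p = 0.057). It was not called either without a filter on low genes (adjusted p = 0.0642), in limma with sample weights (adjusted p = 0.38), in a fit of only the libraries compared (adjusted p = 0.184) or with GM at 1 µM (adjusted p = 0.0511). Minus that at t0 it was -6.42 ± 0.80 (adjusted p = 3.50e-05). Rab7b, a vesicle traffic gene (-2.23 ± 0.41), and Cd36, a scavenger receptor (-2.83 ± 0.30), were lower as well. Wdfy4, which cDC1s need for cross-presentation, spread over 4.38, 52.02 and 20.4 CPM in FL against 26.4, 34.2 and 31.4 CPM in GM cultures (-0.26 ± 0.60, adjusted p = 0.77), so that the FL libraries lay on both sides of the GM range. Under AZD5582 the FL libraries carried Clec9a, Cadm1 and Flt3 above the GM level, had Xcr1 far below its t0 level and Tlr3 below the GM level, and had Irf8 at levels that were not told apart from GM cultures. Xcr1 after DMSO is not given here, so the part of AZD5582 in its fall from t0 is not shown.

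**Figure D2:**
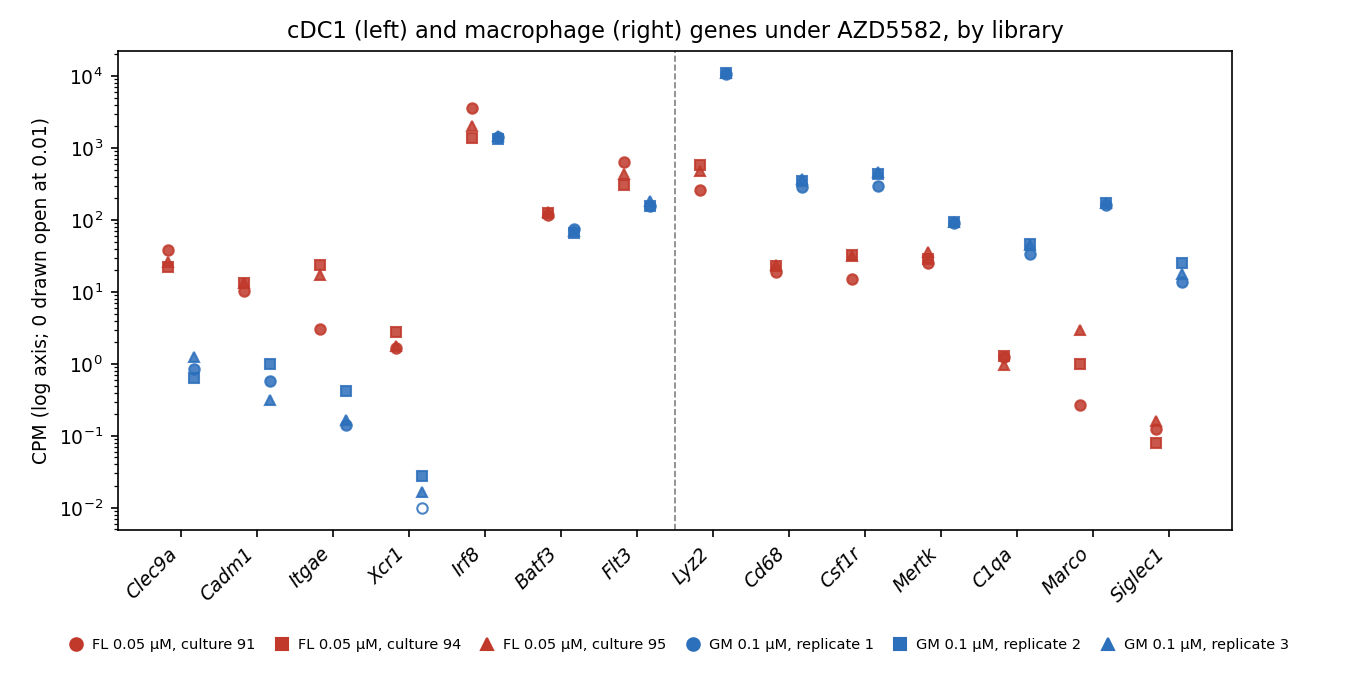
CPM on a log axis of 7 cDC1 genes (left of the dashed line) and 7 macrophage genes (right) in the treated FL libraries (red, left of each pair) and the treated GM libraries (blue), with the marker shape naming the culture or replicate. Clec9a, Cadm1, Itgae, Xcr1, Batf3 and Flt3 lie higher in FL and all 7 macrophage genes lie lower, while the Irf8 values overlap.

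Of 30 lineage transcription factors, 6 were higher and 11 lower in FL cultures, beside 16.3% and 17.2% of all genes. Among the lower were Zeb2 (-2.85 ± 0.24), Egr2 (-3.95 ± 0.61) and Maf (-2.27 ± 0.27). Zeb2, which restrains the cDC1 fate, had 7.32, 16.5 and 11.2 CPM in FL and 77.5, 92.3 and 81.2 CPM in GM cultures. Bcl11a (2.11 ± 0.35) and Runx3 (1.06 ± 0.25), which act in DC and lymphocyte development, were higher. Of 18 genes of type 2 conventional and monocyte-derived DCs, none was higher and 6 lower, and of 15 plasmacytoid DC genes 4 were higher and 4 lower. Siglech, a receptor of plasmacytoid DCs, had 441 counts in FL libraries and none in GM libraries, so that FL was at least 121-fold higher when 3 counts are taken as the limit for the GM group.

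Nearly all genes of monocytes and macrophages were lower in treated FL cultures. Of 29 monocyte and macrophage genes, 25 were lower and 1 higher (median -3.54), with 28 lower after DMSO and 28 at t0. Their summed level was 646, 1383 and 1196 CPM in FL and 17470, 19430 and 19250 CPM in GM cultures. Lyz2, the lysozyme of myeloid cells, had 263, 589 and 478 CPM in FL and 10680, 11210 and 11230 CPM in GM cultures (-4.64 ± 0.26, adjusted p = 1.12e-10). Csf1r, the receptor of the macrophage growth factor CSF1, had 15.1, 32.4 and 31.9 CPM in FL and 301, 434 and 466 CPM in GM cultures (-3.92 ± 0.35). Cd68, a lysosomal membrane protein (-3.94 ± 0.23), the complement gene C1qa (-5.14 ± 0.29) and Trem2, a lipid receptor (-4.33 ± 0.25), were lower too. The exception was Ly6c2, the surface antigen of inflammatory monocytes, with 8.67, 104 and 27.2 CPM in FL and 7.498, 11.9 and 10.1 CPM in GM cultures (2.25 ± 0.65). Culture 91 lay within the GM range and culture 94 was highest, and without that culture it was not called (0.83, adjusted p = 0.252), nor in a fit of only the 6 libraries (adjusted p = 0.0866) or in limma with the random block (adjusted p = 0.064). In bulk RNA, fewer cells of a type and less RNA of that type per cell cannot be told apart.

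Lysosome and lipid genes were lower as well. Of 33 lysosome and phagocytosis genes, 27 were lower and 0 higher in FL cultures (median -1.53), with 31 lower after DMSO and 32 at t0. Ctsk, a cathepsin, had 1.71, 1.79 and 3.64 CPM in FL and 89.7, 102 and 87.05 CPM in GM cultures (-5.30 ± 0.37). The cathepsin gene Ctsl (-3.65 ± 0.20), the lysosomal lipase gene Lipa (-4.44 ± 0.21) and the proton pump subunit gene Atp6v0d2 (-4.45 ± 0.29) were lower too. Of 19 genes of lipid handling and of the nuclear receptors LXR and PPARγ, 14 were lower and 1 higher. After DMSO 17 were lower and at t0 15. Lpl, lipoprotein lipase, had 35.05, 79.4 and 129.5 CPM in FL and 1569, 1851 and 1443 CPM in GM cultures (-4.32 ± 0.35). Abca1, which exports cholesterol, had 5.12, 6.15 and 9.59 CPM in FL and 185, 227 and 192 CPM in GM cultures (-4.86 ± 0.23), and Nr1h3, which encodes LXRα, stood at -4.43 ± 0.33.

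Genes of neutrophils, mast cells, basophils and eosinophils were higher in treated FL cultures, by amounts that differed widely between the cultures. Of 19 neutrophil genes, 15 were higher and 3 lower, and of 18 mast cell, basophil and eosinophil genes 13 were higher and 1 lower. S100a9, a calcium-binding protein of neutrophils, had 54.9, 1152 and 106 CPM in FL and 3.57, 5.06 and 6.54 CPM in GM cultures (6.43 ± 0.98, adjusted p = 3.72e-05). Cpa3, a protease of mast cell granules, had 76.9, 760.3 and 420.1 CPM in FL and 7.22, 13.4 and 8.46 CPM in GM cultures (5.44 ± 0.77). Prg2, the major basic protein of eosinophils, had 166, 2216 and 886 CPM in FL and 24.8, 24.1 and 24.7 CPM in GM cultures (5.47 ± 0.82). For these 3 genes culture 94 was highest and culture 91 lowest among the FL libraries, and every FL library lay above every GM library. The basophil protease gene Mcpt8 (6.07 ± 1.04) and the eosinophil peroxidase gene Epx (4.62 ± 0.78) were higher as well. Lower in FL were 3 neutrophil genes, among them Chil3, a chitinase-like protein also made by macrophages, at 16.8, 286 and 46.5 CPM in FL and 563, 592 and 609 CPM in GM cultures (-2.33 ± 0.64), and the collagenase gene Mmp8 (-2.31 ± 0.50). Chil3 was not called in a fit of only the 6 libraries (adjusted p = 0.113).

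Summed over their lists, the neutrophil genes overlapped between the groups and the mast cell genes did not. Under AZD5582 Chil3, which macrophages also make, was the larger part of each GM neutrophil sum, while 15 of the 19 neutrophil genes were called higher in FL. The neutrophil sum was 226, 4273 and 476 CPM in FL and 698, 834 and 805 CPM in GM cultures under AZD5582, 2415, 11170 and 4718 in FL and 1951, 1906 and 2317 in GM after DMSO, and 1474, 4779 and 2441 in FL and 2592, 2182 and 2264 in GM at t0. The mast cell, basophil and eosinophil sum was 320.3, 4259 and 1849 CPM in FL and 119, 144 and 109 CPM in GM cultures under AZD5582. Several genes of other lists had the same order of cultures, with culture 94 highest, and the part of these cells in them was not tested. Of 11 B cell genes, 1 was higher and 7 lower, of 11 T and NK cell genes 3 and 2, of 11 stem and progenitor genes 3 and 1, and none of 10 stromal genes was called in either direction. Of 40 cell cycle genes, 5 were higher and 2 lower. Without culture 94, 1 cell cycle gene was higher and 9 were lower. The number higher was 3 without GM replicate 1, 1 without GM replicate 3 and 3 without culture 95.

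**Figure D3:**
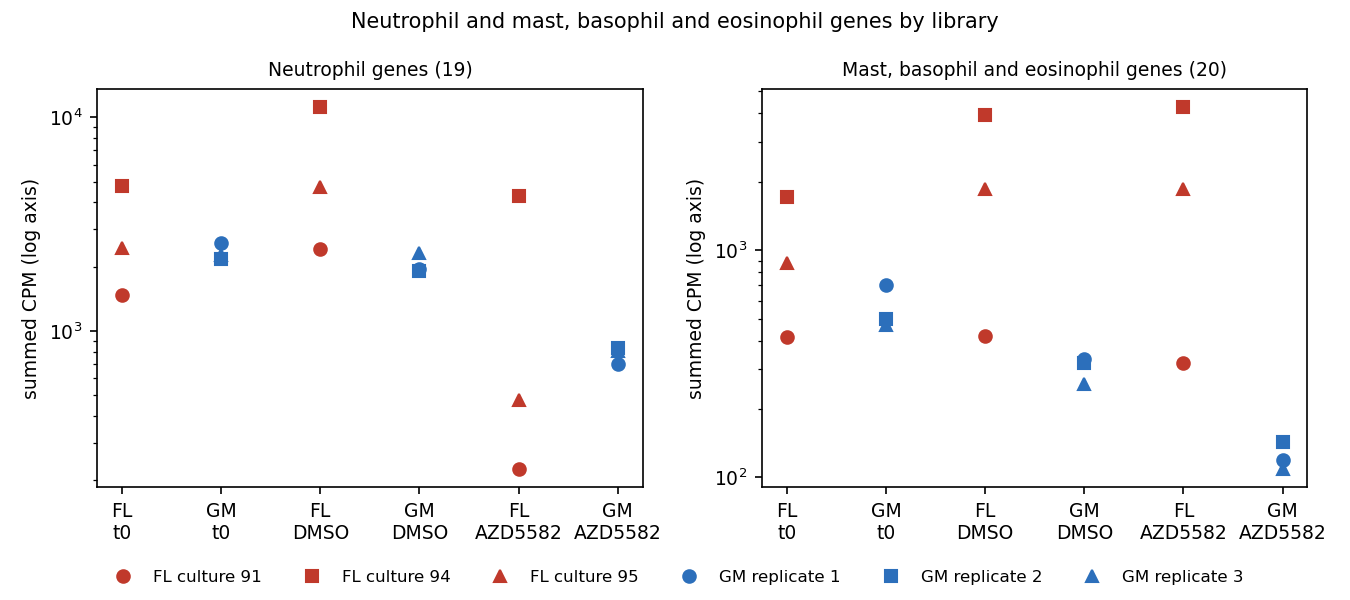
Summed CPM on a log axis of 19 neutrophil genes (left) and 20 mast cell, basophil and eosinophil genes (right) in each FL library (red) and GM library (blue) at t0, after DMSO and under AZD5582, with the marker shape naming the culture or replicate. Culture 94 is highest in every FL group, and under AZD5582 the neutrophil sums of cultures 91 and 95 lie below the 3 GM libraries. Chil3, which macrophages also make, is the larger part of each GM neutrophil sum under AZD5582.

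Genes of mature DCs differed less between treated FL and GM cultures than they did at t0. Of 38 maturation genes, 10 were higher and 2 lower under AZD5582 (median 0.48), against 23 and 1 after DMSO (median 0.83) and 28 and 2 at t0 (median 1.80). For 20 of them the FL minus GM difference was lower than at t0 by the test of the change itself, which called 1024 of all genes (5.93%) in that direction. Against DMSO that test called 2 of the 38 lower and 0 higher. Ccr7, the receptor that leads DCs to lymph nodes, had 7844, 2881 and 4315 CPM in FL and 4329, 3867 and 4430 CPM in GM cultures and was not called (0.25 ± 0.39, adjusted p = 0.657); at t0 it had 1089, 1084 and 1112 CPM in FL and 219, 272 and 205 CPM in GM cultures. The FL libraries lay on both sides of the GM libraries for this gene. Without GM replicate 2, 6 maturation genes were higher under AZD5582. After DMSO the number higher was 10 without culture 91, 15 without GM replicate 1 and 10 in a fit of only the DMSO libraries, so that the order of the DMSO and AZD5582 counts depends on these choices.

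Co-stimulatory genes were among the maturation genes that were higher. Cd86, a ligand of CD28, had 606, 611 and 723 CPM in FL and 472, 412 and 342 CPM in GM cultures (0.66 ± 0.15, adjusted p = 0.00167). Cd80, the other CD28 ligand, had 283, 429 and 488 CPM in FL and 226, 189 and 140.2 CPM in GM cultures (1.11 ± 0.20, adjusted p = 2.05e-04). Neither gene overlapped between the groups. Cd40, through which T cells license DCs, had 698, 336 and 461 CPM in FL and 282, 236 and 247 CPM in GM cultures (0.97 ± 0.31, adjusted p = 0.0209). It was not called without culture 91 (adjusted p = 0.137), GM replicate 2 (adjusted p = 0.0729) or GM replicate 3 (adjusted p = 0.0634), or without a filter on low genes (adjusted p = 0.0547). The calcium channel subunit gene Cacnb3 (1.66 ± 0.26), Il15ra, which presents IL-15 to T and NK cells (2.06 ± 0.23), and Ido1, which breaks down tryptophan (2.66 ± 0.36), were higher in FL. H2-M2, a non-classical class I gene (-2.46 ± 0.23), and Tnfrsf9, the receptor 4-1BB (-1.21 ± 0.28), were lower.

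Of the IAP genes, which encode the proteins that AZD5582 binds, Birc2 was higher in FL cultures and Birc3 and Xiap were not called. Birc2, which encodes cIAP1, had 428, 363 and 369 CPM in FL and 223, 208 and 231 CPM in GM cultures (0.81 ± 0.23, adjusted p = 0.00921), without overlap. Birc3, which encodes cIAP2, had 523, 347 and 434 CPM in FL and 299.8, 287 and 327 CPM in GM cultures (0.51 ± 0.22, adjusted p = 0.0744) and was called without culture 94 (0.61, adjusted p = 0.0361), without culture 91 in all FL groups (0.36, adjusted p = 0.0183) and by DESeq2 (adjusted p = 0.0464). Its FL and GM libraries did not overlap either. Xiap had 76.1, 79.8 and 104 CPM in FL and 92.7, 86.7 and 76.8 CPM in GM cultures (0.02 ± 0.16, adjusted p = 0.935). Of 12 genes of IAPs and their antagonists, 1 was higher and 3 lower, and without culture 91 3 were higher. The lower ones were Naip1 (-3.18 ± 0.58) and Naip2 (-1.05 ± 0.19), sensors of bacterial proteins with near-identical copies that may share reads, and Xaf1, an antagonist of XIAP (-1.82 ± 0.24).

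Of 26 NF-κB genes, 4 were higher and 2 lower under AZD5582, against 10 and 2 after DMSO and 21 and 1 at t0. Among all genes 16.3% were higher and 17.2% lower under AZD5582. The test of the change called 0 of the 26 against DMSO (median change -0.04) and 5 lower against t0, where it called 5.93% of all genes lower. The lower count of calls than after DMSO therefore does not show a smaller difference. Without culture 94, 8 were higher, against 2 without culture 91, 2 without GM replicate 2 and 2 without GM replicate 3. After DMSO the number higher was 17 without culture 94, 5 without culture 91, 6 without GM replicate 1 and 3 in a fit of only the DMSO libraries. Map3k14, which encodes NIK, had 377, 192 and 209 CPM in FL and 132, 129 and 137 CPM in GM cultures (0.97 ± 0.31, adjusted p = 0.0201). It was not called without culture 91 (0.59, adjusted p = 0.156), GM replicate 1 (adjusted p = 0.0561), GM replicate 2 (adjusted p = 0.0623) or GM replicate 3 (adjusted p = 0.0504), or without a filter on low genes (adjusted p = 0.0507). Nfkb2, the precursor of the non-canonical subunit p52, had 1696, 629 and 924 CPM in FL and 719, 706 and 795 CPM in GM cultures, with overlap (0.55 ± 0.34, adjusted p = 0.233). Relb, its partner, stood at 0.53 ± 0.33 (adjusted p = 0.229). Tnip3, an inhibitor of NF-κB, was lower (-1.79 ± 0.17) and Nfkbid, an atypical inhibitor protein, higher (0.52 ± 0.15).

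**Figure D4:**
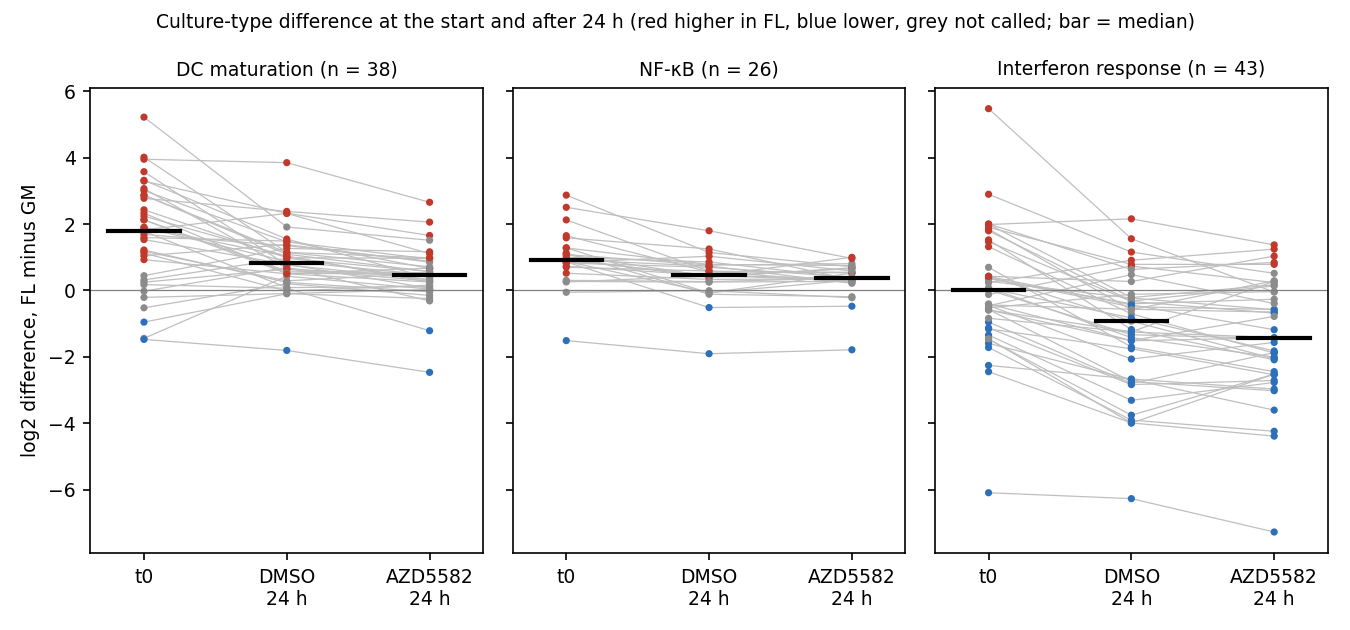
Log2 differences, FL minus GM, at t0, after 24 h in DMSO and after 24 h with AZD5582 for the genes of 3 lists, 1 line a gene, red where called higher in FL, blue where called lower, grey where not called, with medians as black bars. Under AZD5582 the median lies at 0.48 for maturation genes, 0.38 for NF-κB genes and -1.42 for interferon genes.

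Of 37 cell death genes, 8 were higher and 6 lower, beside 16.3% and 17.2% of all genes. Casp8, the caspase that death receptors activate, had 104, 187 and 199.7 CPM in FL and 78.4, 87.4 and 87.3 CPM in GM cultures (0.95 ± 0.17). The survival gene Bcl2l2 was higher (0.75 ± 0.12), and the TNF receptor gene Tnfrsf1a (-1.20 ± 0.19) and the inflammasome caspase gene Casp1 (-0.83 ± 0.16) were lower. Of 31 TNF superfamily ligands and receptors, 3 were higher and 8 lower, and without GM replicate 3 1 was higher.

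Of 24 cytokine genes, 5 were higher and 6 lower in FL cultures. The number higher was 3 without culture 91, 3 without culture 95, 3 without GM replicate 1, 2 without GM replicate 2 and 2 without GM replicate 3. Il1rn, the antagonist of the IL-1 receptor, had 285, 116 and 142 CPM in FL and 1228, 1291 and 1158 CPM in GM cultures (-2.76 ± 0.25). Il1a (-3.78 ± 0.47), the vessel growth factor gene Vegfa (-2.70 ± 0.34), Csf1 (-1.41 ± 0.33) and Tgfb1 (-1.39 ± 0.23) were lower too; in a fit of only the 6 libraries Csf1 was not called (adjusted p = 0.0551). Il12b, the shared subunit of IL-12 and IL-23, had 4014, 278 and 656 CPM in FL and 588, 469.5 and 677 CPM in GM cultures (1.51 ± 0.81, adjusted p = 0.161), with culture 91 far above and culture 94 below every GM library. Il6 (-0.18 ± 0.37, adjusted p = 0.743) and Tnf (-0.02 ± 0.47, adjusted p = 0.985) were not called. Ebi3, a subunit of IL-27 and IL-35, had 385, 295 and 354 CPM in FL and 217, 188 and 193 CPM in GM cultures (0.79 ± 0.13), against 70.6, 65.2 and 71.5 in FL and 82.7, 99.2 and 75.4 in GM after DMSO. Its difference was larger than after DMSO by 1.10 ± 0.18 (adjusted p = 0.00314; 0.12 in a fit of only the libraries compared). Of 25 Notch pathway genes, 3 were higher and 8 lower; the ligand gene Dll4 had 27.9, 16.8 and 43.3 CPM in FL and 37.6, 28.2 and 38.03 CPM in GM cultures (-0.24 ± 0.37, adjusted p = 0.659). Of 25 genes for ligands of T cell receptors, 5 were higher and 5 lower, with 3 higher without GM replicate 2 and 2 without GM replicate 3. The shares of all genes beside the lists of this paragraph were 16.3% higher and 17.2% lower.

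Of 23 MHC class I pathway genes, 6 were higher and 2 lower. Nlrc5, which switches on class I genes, had 239, 111 and 147 CPM in FL and 49.5, 44.8 and 62.2 CPM in GM cultures (1.67 ± 0.38), and the peptide transporter gene Tap2 was higher (0.80 ± 0.17). The chaperone genes Calr (-0.89 ± 0.15) and Canx (-0.59 ± 0.13) were lower. The number of class I genes higher in FL was 10 without culture 94, 3 without culture 95, 2 without culture 91, 3 without GM replicate 1 and 3 without GM replicate 2. Of 16 class II pathway genes, 1 was higher and 4 lower, against 8 higher and 2 lower at t0 (5 higher and 1 lower without culture 91 at t0). Ctss, the cathepsin that trims the invariant chain, had 606, 498 and 662 CPM in FL and 2295, 2654 and 2639 CPM in GM cultures (-2.10 ± 0.15). March1, a ligase that removes class II from the cell surface, had 1.66, 9.197 and 7.26 CPM in FL and 75.97, 86.4 and 75.7 CPM in GM cultures (-3.73 ± 0.51, adjusted p = 9.39e-06); at t0 it had 152, 95.9 and 95.6 CPM in FL and 125, 121 and 116 CPM in GM cultures, which overlapped. Of 30 cross-presentation genes, 6 were higher and 12 lower: the uptake receptor gene Ly75, which encodes DEC-205 (1.19 ± 0.28), was higher, and the oxidase subunit gene Cybb (-2.85 ± 0.21) was lower.

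Sensors of microbes were mostly lower in FL cultures. Of 19 Toll-like receptor genes and adaptors, 11 were lower and 1 higher, against 10 and 2 after DMSO and 8 and 4 at t0. Tlr8 (-5.56 ± 0.42) and Tlr7 (-4.33 ± 0.27), sensors of single-stranded RNA, and the lipopolysaccharide co-receptor gene Cd14 (-4.79 ± 0.39) were all lower. Tlr11, the mouse sensor of profilin, was the gene that was higher, at 7.28, 7.64 and 7.42 CPM in FL and 1.799, 2.01 and 3.88 CPM in GM cultures (1.53 ± 0.40). Of 23 C-type lectin genes, 12 were lower and 3 higher, against 12 and 2 after DMSO and 13 and 4 at t0. Clec4n, which encodes the fungal receptor Dectin-2, had 15.2, 46.5 and 60.3 CPM in FL and 982, 962 and 772 CPM in GM cultures (-4.48 ± 0.47), and Clec4d, its partner, stood at -4.23 ± 0.34.

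Interferon-stimulated genes were lower in treated FL cultures for 25 of 43 and higher for 5 (median -1.42). The counts were 23 and 6 after DMSO (with 3 higher without culture 91 and 3 without GM replicate 1), and 11 and 13 at t0. For 19 the difference was lower than at t0 by the test of that change, beside 5.93% of all genes. Against DMSO the test called 0 of the 43. Oas1a, which starts RNA decay, had 1.53, 5.42 and 3.64 CPM in FL and 36.2, 47.5 and 44.1 CPM in GM cultures (-3.60 ± 0.31). Ifit3 (-4.24 ± 0.47), which has a near copy, the antiviral gene Rsad2 (-2.71 ± 0.31) and Rtp4 (-4.39 ± 0.50) were lower. Higher in FL were Gbp5, a guanylate-binding protein, at 336, 327 and 460.3 CPM in FL and 148, 163 and 122 CPM in GM cultures (1.37 ± 0.19), and Stat2, a transcription factor of the interferon response (0.79 ± 0.14). The number higher was 3 without culture 91, 3 without culture 95, and 3, 3 and 3 without GM replicates 1, 2 and 3 in turn.

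None of the 24 chemokine genes was higher in treated FL cultures and 11 were lower. After DMSO 1 was higher and 13 lower, and at t0 5 were higher and 10 lower. Pf4, platelet factor 4, had 0.362, 0.787 and 1.403 CPM in FL and 36.6, 45.5 and 29.98 CPM in GM cultures (-5.50 ± 0.42). Cxcl3, a neutrophil attractant, had 0.3896, 1.997 and 2.69 CPM in FL and 80.3, 87.8 and 44.3 CPM in GM cultures (-5.42 ± 0.57). Both were lower in every FL library. Of 23 chemoattractant receptors, 7 were higher (4 without culture 94) and 13 lower, among them Cmklr1, the chemerin receptor (-4.28 ± 0.32), and the complement receptor gene C5ar1 (-4.16 ± 0.68). Cxcr4, the receptor of CXCL12, had 28.8, 66.5 and 41.7 CPM in FL and 126, 164 and 172 CPM in GM cultures (-1.76 ± 0.23), but 121, 141 and 104 CPM in FL and 85.6, 109.7 and 118 CPM in GM after DMSO. The 2 differences were not alike by the test of their change (-1.98 ± 0.32, adjusted p = 0.00314; 0.107 in a fit of only the libraries compared). Il7r, a receptor of IL-7, had 21.4, 23.8 and 23.8 CPM in FL and 106, 124 and 105 CPM in GM cultures (-2.28 ± 0.17) and 128, 69.7 and 101 CPM in FL and 125, 138 and 186 CPM in GM after DMSO (change -1.69 ± 0.24, adjusted p = 7.08e-04; 0.0725 in a fit of only the libraries compared). Of 26 growth factor and cytokine receptors, 4 were higher and 11 lower, beside 16.3% and 17.2% of all genes. Of 25 integrin and adhesion genes, 6 were higher and 7 lower. Of 19 eicosanoid genes 2 were higher and 7 lower, and of 20 genes of amino acid metabolism 3 and 6.

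Most genes of cholesterol synthesis and uptake were higher in FL cultures under AZD5582, while after DMSO few were. Of 22 genes, 16 were higher and 1 lower under AZD5582 (median 1.00), against 3 and 5 after DMSO (median 0.01) and 10 and 1 at t0 (median 0.42). For 8 genes the difference was larger than after DMSO by the test of the change, which called 167 of all genes (0.967%) in that direction. Among them were Insig1, Fdps, Lss, Cyp51, Msmo1, Sc5d and Stard4. Without the DMSO library of culture 91 there were 13, and with the culture as a block 14, and in a fit of only the libraries compared there were 4, Lss not among them (adjusted p = 0.147). After DMSO itself, 3 genes were higher and 2 lower without GM replicate 1, 5 and 3 without culture 95, and 2 and 1 in a fit of only the DMSO libraries. Most of these genes are known targets of SREBP2, the transcription factor that senses sterols, which binds promoters together with NF-Y, a factor of the CCAAT box. The 250 bases before the start of 4 of the 8 genes are shown with each CCAAT (or ATTGG, its reverse complement) and each CACNCCAC (or GTGGNGTG), a sterol element core, in capitals, from RefSeq, build GRCm38.p6, 5′ to 3′ on the strand of the gene. Insig1 lies on the plus strand at chr5:28071162-28071411, Sc5d on the minus strand at chr9:42264301-42264550, Msmo1 on the minus strand at chr8:64733579-64733828 and Lss on the plus strand at chr10:76531355-76531604.
Insig1: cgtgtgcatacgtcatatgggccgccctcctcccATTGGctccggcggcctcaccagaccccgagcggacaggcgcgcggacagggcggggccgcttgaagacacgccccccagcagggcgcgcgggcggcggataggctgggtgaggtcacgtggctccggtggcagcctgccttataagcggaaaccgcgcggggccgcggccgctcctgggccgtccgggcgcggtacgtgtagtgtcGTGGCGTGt
Sc5d: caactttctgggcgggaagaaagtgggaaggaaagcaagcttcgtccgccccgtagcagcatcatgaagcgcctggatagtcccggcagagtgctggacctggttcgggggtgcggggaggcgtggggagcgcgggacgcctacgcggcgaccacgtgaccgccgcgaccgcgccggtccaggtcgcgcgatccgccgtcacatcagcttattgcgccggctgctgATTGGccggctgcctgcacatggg
Msmo1: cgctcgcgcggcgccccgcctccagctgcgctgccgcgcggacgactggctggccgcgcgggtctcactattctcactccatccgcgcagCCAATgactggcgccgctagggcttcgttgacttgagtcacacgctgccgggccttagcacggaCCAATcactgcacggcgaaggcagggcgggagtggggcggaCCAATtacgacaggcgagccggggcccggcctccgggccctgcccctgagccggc
Lss: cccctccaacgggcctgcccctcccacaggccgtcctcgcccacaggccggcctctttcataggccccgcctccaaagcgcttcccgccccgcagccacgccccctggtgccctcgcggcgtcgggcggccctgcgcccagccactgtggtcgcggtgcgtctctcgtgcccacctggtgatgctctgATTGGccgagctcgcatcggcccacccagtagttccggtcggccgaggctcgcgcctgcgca
The table held 17 promoters for 14 of the 22 genes, and 13 of the 17 held CCAAT in this window, against 33.8% of 32851 promoters of mouse genes. CACNCCAC was in 3 of the 17, against 5.29% of all promoters. A match is a description of the letters and not a site. The genes were listed by pathway and not by their change against DMSO, and the part of these matches in that change was not tested.

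Of the 4 genes shown, Insig1, which holds the SREBP complex in the endoplasmic reticulum, had 47.6, 47.2 and 34.4 CPM in FL and 17.7, 16.2 and 19.5 CPM in GM cultures under AZD5582 (1.27 ± 0.15). After DMSO it had 47.3, 44.98 and 38.4 CPM in FL and 68.05, 59.4 and 53.6 CPM in GM cultures, so the FL values were close in both and the GM values were not. Its difference was larger than after DMSO by 1.75 ± 0.21 (adjusted p = 1.42e-04). Sc5d, a late enzyme of the pathway, had 47.03, 50.7 and 42.6 CPM in FL and 22.96, 23.1 and 23.8 CPM in GM cultures under AZD5582 (1.01 ± 0.10), and 44.96, 44.1 and 39.1 CPM in FL and 65.01, 55.1 and 51.6 CPM in GM cultures after DMSO (change 1.43 ± 0.15, adjusted p = 2.21e-05). For both genes the groups did not overlap in either condition, and FL was the higher under AZD5582 and the lower after DMSO. Msmo1, which removes methyl groups from sterols (change 1.53 ± 0.21), and Lss, which closes the sterol rings (change 1.49 ± 0.24), moved the same way. Fdps, which makes farnesyl diphosphate, had 98.3, 90.3 and 65.7 CPM in FL and 19.5, 13.6 and 20.5 CPM in GM cultures (2.25 ± 0.20), the widest difference of the list among genes with more than 3 counts in each group. Stard4, a sterol carrier (1.41 ± 0.14), and Hmgcs1, an early enzyme (1.42 ± 0.19), were also higher, and Dhcr7, which makes cholesterol from its last precursor, was lower (-1.26 ± 0.22).

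**Figure D5:**
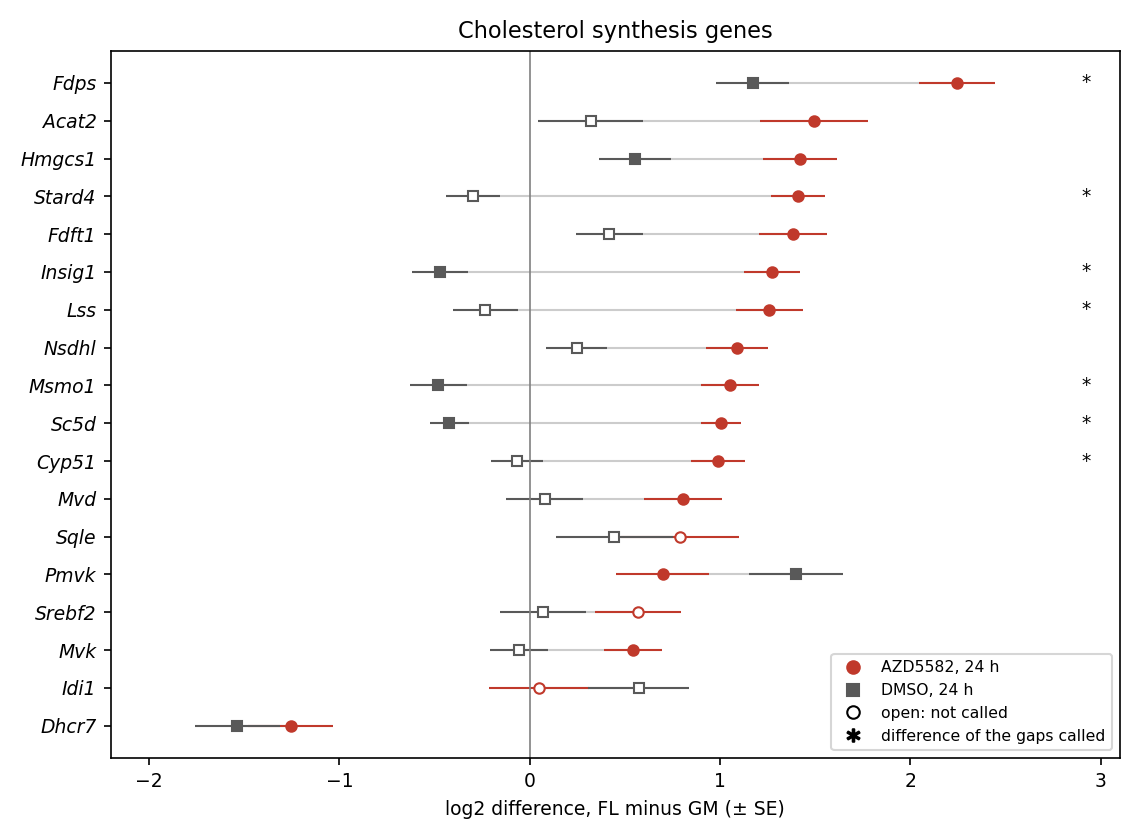
Log2 differences, FL minus GM, with SE for 18 cholesterol genes under AZD5582 (red circles) and after DMSO (grey squares), open where not called, and an asterisk at 7 genes where the 2 differences were called unlike. Insig1, Msmo1 and Sc5d were called right of 0 under AZD5582 and left of 0 after DMSO.

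Genes of glycolysis and hypoxia were lower in treated FL cultures for 17 of 28 and higher for 2 (median -0.89), with 21 lower after DMSO and 21 at t0. Pgam1, phosphoglycerate mutase, had 24.6, 28.5 and 22.8 CPM in FL and 64.8, 90.6 and 81.3 CPM in GM cultures (-1.64 ± 0.16). The glucose transporter gene Slc2a1 was lower (-1.43 ± 0.20), while Slc2a3, another glucose transporter, was higher, at 3.52, 22.2 and 10.7 CPM in FL and 0.631, 1.09 and 0.449 CPM in GM cultures (4.09 ± 0.58), with culture 94 highest.

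Few genes were called as differing between the culture types by another amount under AZD5582 than after DMSO. In the same edgeR test 2277 genes had an unadjusted p under 0.05, so a low count of calls does not show that few genes changed. The test of this change called 289 of 17262 genes (1.67%), 167 with a higher and 122 with a lower FL minus GM difference (0.967% and 0.707%). With the culture as a block, where GM libraries of the same replicate number also formed a block, it called 738. Without culture 91 in all FL groups the count was 800. The libraries whose absence moved it over 1.5-fold were GM DMSO replicates 1 (93) and 2 (126), GM AZD5582 replicates 1 (111), 2 (140) and 3 (180) and the DMSO library of culture 91 (591). Fitted to the 12 libraries of these 4 groups alone, the test called 17.

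For Fn1 and Apoe, FL and GM cultures differed far less under AZD5582 than after DMSO, and for Traf4 they differed after DMSO and were not told apart under AZD5582. Fn1, which encodes fibronectin, had 67.3, 29.1 and 26.1 CPM in FL and 33.5, 57.4 and 50.9 CPM in GM cultures under AZD5582, with overlap (-0.21 ± 0.40, adjusted p = 0.723). After DMSO it had 56.5, 17.3 and 19.6 CPM in FL and 1391, 1141 and 737 CPM in GM cultures, a change of the difference by 4.92 ± 0.60 (adjusted p = 1.99e-04). Apoe, an apolipoprotein of macrophages, had 2.74, 3.75 and 2.99 CPM in FL and 31.2, 31.3 and 33.3 CPM in GM cultures under AZD5582, and 7.598, 6.75 and 5.84 in FL and 955, 612 and 802 in GM after DMSO (change 3.54 ± 0.31, adjusted p = 6.21e-06). For both genes the GM libraries were far lower under AZD5582 than after DMSO, while the FL libraries differed far less between the conditions. Traf4, an adaptor of TNF receptors, had 44.9, 27.8 and 32.9 CPM in FL and 40.04, 29.3 and 35.4 CPM in GM cultures under AZD5582 (0.01 ± 0.19, adjusted p = 0.964) and 31.5, 21.8 and 30.2 in FL and 3.49, 3.55 and 5.28 in GM after DMSO (change -2.75 ± 0.28, adjusted p = 1.74e-05). Mertk, a receptor for dying cells, had 25.02, 28.8 and 35.9 CPM in FL and 91.6, 94.5 and 94.8 CPM in GM cultures under AZD5582 (-1.65 ± 0.17), and 7.57, 9.41 and 11.4 in FL and 101, 90.6 and 109.9 in GM after DMSO, so that the FL libraries were higher under AZD5582 than after DMSO and the GM libraries overlapped (change 1.76 ± 0.24, adjusted p = 6.35e-04).

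Ppbp and Pdpn differed more under AZD5582 than after DMSO. Ppbp, a platelet chemokine, had 0.153, 0.161 and 0.317 CPM in FL and 12.4, 13.2 and 9.92 CPM in GM cultures under AZD5582, and 5.01, 2.75 and 3.84 in FL and 15.6, 12.7 and 20.1 in GM after DMSO (change -3.78 ± 0.56, adjusted p = 0.00127; 0.181 in limma with sample weights). Pdpn, podoplanin, had 1.59, 3.79 and 3.28 CPM in FL and 49.7, 65.1 and 38.1 CPM in GM cultures under AZD5582, and 4.06, 16.6 and 19.8 in FL and 26.8, 28.2 and 33.02 in GM after DMSO (change -3.03 ± 0.54, adjusted p = 0.007; 0.0721 in limma with sample weights and 0.156 in a fit of only the libraries compared). In both, the FL libraries were lower under AZD5582 than after DMSO and the difference was wider. For Adgre4, an adhesion receptor of macrophages, the change was 2.95 ± 0.58 (adjusted p = 0.0129; 0.226 in limma with sample weights and 0.194 in a fit of only the libraries compared). Ltb4r1, a leukotriene receptor, had 1.45, 14.3 and 3.91 CPM in FL and 0.724, 0.559 and 1.03 CPM in GM cultures under AZD5582, and 6.62, 13.8 and 10.4 in FL and 25.4, 24.4 and 16.2 in GM after DMSO (change 4.15 ± 0.82, adjusted p = 0.0127). Its change was not called without a filter on low genes (adjusted p = 0.0524), in limma with sample weights (adjusted p = 0.0631) or in a fit of only the libraries compared (adjusted p = 0.178). Ltb4r1 was highest in culture 94 among the treated FL libraries, as the granulocyte genes were, and their part in it was not tested.

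Against t0, the difference between the culture types had another size in 1414 genes (8.19%), 390 higher and 1024 lower (2.26% and 5.93%), and in 2384 with the culture as a block. Without GM t0 replicate 1 it was 912 genes. It was called with opposite signs at t0 and under AZD5582 in 87 genes, 65 of them higher in FL at t0 and lower under AZD5582. Mrc2, a collagen receptor, had 38.6, 17.6 and 36.97 CPM in FL and 80.3, 111 and 105 CPM in GM cultures under AZD5582 (-1.67 ± 0.35), and 5.24, 9.001 and 10.2 CPM in FL and 0.239, 0.2800 and 0.293 CPM in GM at t0 (change -6.57 ± 0.58, adjusted p = 7.58e-07). Egr3, an immediate early gene, had 0.0278, 1.57 and 0.769 CPM in FL and 5.89, 7.67 and 6.36 CPM in GM cultures under AZD5582 (-3.12 ± 0.72), and 208, 70.6 and 32.1 CPM in FL and 15.7, 10.3 and 19.4 CPM in GM at t0 (change -5.89 ± 0.97, adjusted p = 5.81e-04); under AZD5582 it was not called in a fit of only the 6 libraries (adjusted p = 0.0612). Slc6a4, the serotonin transporter, turned the other way, with 14.3, 36.7 and 25.9 CPM in FL and 3.69, 5.04 and 4.76 CPM in GM cultures under AZD5582 (2.51 ± 0.31), and 5.23, 10.9 and 9.36 CPM in FL and 25.5, 22.1 and 20.2 CPM in GM at t0 (change 3.92 ± 0.42, adjusted p = 7.53e-06). In all 3 genes the groups overlapped neither at t0 nor under AZD5582.

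A further 621 genes differed at least 2-fold at t0 and after DMSO, in the same direction, and were not called under AZD5582. For 170 of them the change from t0 was called, a change that takes in 24 h of culture as well as AZD5582. Among all genes not called under AZD5582, the change against DMSO was called in 114. Tlr12, the partner of Tlr11 in sensing profilin, had 2.94, 7.79 and 5.18 CPM in FL and 3.39, 3.08 and 3.36 CPM in GM cultures under AZD5582 (0.69 ± 0.40, adjusted p = 0.191), and 85.5, 36.2 and 42.9 CPM in FL and 1.03, 0.988 and 0.895 CPM in GM at t0 (change -5.13 ± 0.59, adjusted p = 1.38e-05). Ifi205, an interferon-inducible gene of a family with close copies, had 5.45, 9.08 and 7.47 CPM in FL and 5.42, 10.4 and 6.92 CPM in GM cultures under AZD5582 (-0.05 ± 0.44, adjusted p = 0.946), and 232, 96.8 and 139.8 CPM in FL and 3.17, 3.84 and 3.51 CPM in GM at t0 (change -5.52 ± 0.65, adjusted p = 1.81e-05). For these genes the treated FL and GM libraries overlapped. A p above the threshold does not show that the 2 culture types were alike.

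GM cultures were also treated at higher doses, and no FL library at those doses was analysed here. Against GM cultures with 0.5 µM AZD5582, 5272 genes differed from the FL cultures with 0.05 µM, and against those with 1 µM 5560 did. Of the cholesterol genes, 12 were higher in FL against 0.5 µM and 10 against 1 µM, beside 16 against 0.1 µM. Traf4, not called against 0.1 µM, was lower in FL against 0.5 µM (-0.97, adjusted p = 5.94e-04) and 1 µM (-1.04, adjusted p = 3.38e-04). Dll4 was lower in FL against 0.5 µM (-1.18, adjusted p = 0.0227) and 1 µM (-1.37, adjusted p = 0.00904). Il6 was lower in FL too, at -1.41 (adjusted p = 0.00743) with GM at 0.5 µM and -1.46 (adjusted p = 0.00563) with GM at 1 µM. Tlr12 was higher in FL at 1.15 (adjusted p = 0.0348) with GM at 0.5 µM and 1.41 (adjusted p = 0.0116) with GM at 1 µM, and Birc3 with GM at 1 µM (0.61, adjusted p = 0.0375). The co-stimulatory genes were not called against either dose, at 0.18 and 0.15 for Cd86, 0.45 and 0.45 for Cd80 and 0.52 and 0.41 for Cd40. Chil3, Mmp8, Naip2 and Egr3 were not called against either dose, Calr and Map3k14 not against 0.5 µM, and Cyp51 and Dhcr7 not against 1 µM.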

How the data were processed

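RNA was sequenced from the 24 libraries as stranded mRNA-seq libraries, per the labels' protocols. The submitters' processing notes name STAR 2.7.3a, HTSeq 0.12.4 and the build GRCm39, and the authors deposited 1 table of raw counts per gene for each library. The annotation release and whether strand was used in counting were not given in the sources used here, so genes that overlap on opposite strands, and genes with near-identical copies such as the Naip, Ifit and class I genes, are uncertain. Lines that name no gene held 12.54% to 13.83% of the counts in the 6 libraries compared and were left out. Symbols were matched by Ensembl identifier (52133 of 55414 named).

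All 24 libraries were fitted as 8 groups of 3 with edgeR 4.0.16 (quasi-likelihood test, robust, TMM scaling, low-count filter, R 4.3.3), with Benjamini-Hochberg adjustment over 17262 genes, which is the source of every adjusted p unless another tool is named; the script was tested on simulated data. Fits with limma 3.58.1 (including the random culture block) and DESeq2 1.42.0 were alternatives. No 2 libraries held identical values. Pairing was checked by the correlation of deviations from group means. It was 0.143 to 0.64 between libraries of the same FL culture, which the culture numbers in the labels pair. For GM libraries of the same replicate number it was 0.026 to 0.069. The main fit paired no libraries, while the fits with a culture block also took each GM replicate number as a block.

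The comparison and the gene lists were chosen with earlier results of these data known. Genes were named as the 12 largest called differences each way with non-overlapping groups and the 8 largest each way of the changes against DMSO. Added were the 8 largest with opposite signs at t0 and the 8 largest called at t0 and after DMSO but not under AZD5582. The leading members of each list and a fixed panel were named too. Cyp51, Lss, Msmo1, Runx3 and Wdfy4 fall outside this rule and were chosen after their values were seen. Some genes of the lists are counted in them and not reported by name here. Intervals and floors of counts cover counting error only.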

Additional observations from a re-analysis of the deposited data

Results flagged for a closer look

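Genes are given here because the FL minus GM difference under AZD5582 was unlike that in another condition by edgeR's interaction test, adjusted by Benjamini-Hochberg over the 17262 genes. Of macrophage and matrix genes, the change against DMSO was 4.92 for Fn1, 3.54 for Apoe, 2.95 for Adgre4 and 1.76 for Mertk. For each of these the gap was narrower under AZD5582, with FL less far below GM than after DMSO. Of cholesterol genes it was 1.75 for Insig1, 1.53 for Msmo1, 1.49 for Lss and 1.43 for Sc5d. It was 4.15 for the leukotriene receptor gene Ltb4r1 and 1.10 for the cytokine subunit gene Ebi3. The change was negative, at -3.78 for Ppbp, -3.65 for Tlr3, -3.03 for Pdpn, -2.75 for Traf4, -1.98 for Cxcr4 and -1.69 for Il7r.

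Against t0, the change was -6.57 for the collagen receptor gene Mrc2, -6.42 for Tlr3, -5.89 for Egr3, -5.52 for Ifi205 and -5.13 for Tlr12. It was 3.92 for the serotonin transporter gene Slc6a4. The changes against DMSO and against t0 rest on the same AZD5582 libraries.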

How the results depend on the processing

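The count of genes that differed under AZD5582 (5782) lay between 4441 and 5962 when 1 library was left out, was 4010 when only the 6 libraries were fitted, and was within 1.5 times under every alternative run. Leaving out 1 library gave 5602 to 7242 genes after DMSO and 5767 to 6107 at t0, and the 6 DMSO libraries alone gave 3866. The change against DMSO (289) depended most on the fit: 187 without a filter on low genes, 104 with limma and sample weights, 17 with only the libraries compared, 646 with DESeq2, 738 with the culture as a replicate block, 1158 and 1422 with GM cultures at 0.5 and 1 µM in place of 0.1 µM, and 93 to 591 without 1 library. The change against t0 (1414) was 2384 with the replicate block and 912 to 1702 without 1 library. Without culture 91 in all FL groups, chosen after seeing the data, the counts were 800 against DMSO and 2735 against t0. Why these counts moved was not tested. Traf4 and Ifi205, not called against GM at 0.1 µM, were called only with GM at higher doses. Traf4 was lower in FL against GM at 0.5 µM (-0.97) and 1 µM (-1.04), and Ifi205 was higher in FL against GM at 1 µM (1.29). Of the named genes, Ctsg, Mpo, Itgae and Ly6c2 lost the AZD5582 call in the limma fit with the random replicate block, which changes the tool and the block at once; no other named gene did. With 3 libraries a group, of which the FL libraries spread widely, small differences cannot be told from none.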
